A study of Rattus norvegicus with 138 samples.

Results

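The brain renin-angiotensin system was followed through 9 genes, Agt, Agtr1a, Agtr2, Ace, Mas1, Atp6ap2, Lnpep, Enpep and Agtrap, which were chosen by symbol from the 32883 genes of the count tables. RNA was sequenced from punches of the nucleus of the solitary tract (NTS), the caudal ventrolateral medulla (CVLM) and the rostral ventrolateral medulla (RVLM) of 46 female rats, with 1 library per rat and region. The rats were spontaneously hypertensive rats (SHRs, SHR/NHsd) and normotensive Wistar-Kyoto controls (WKY, WKY/NHsd). There were 5 SHRs and 5 WKY rats at 8 wk of age, 5 and 4 at 10 wk, and 6 and 3 at each of 12, 16 and 24 wk. The labels name no transgene and no treatment. Both strains are inbred lines from 1 supplier, so each strain contrast includes every locus at which the lines differ, and each rat was sampled at 1 age.

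Angiotensinogen, the product of Agt, is the precursor of all angiotensin peptides and is made in the brain mainly by astrocytes. Stepwise cutting, with angiotensin-converting enzyme (Ace) at the last step, yields angiotensin II, which acts on the type 1 receptor (Agtr1a) and the type 2 receptor (Agtr2), while a shorter fragment acts on the receptor Mas1. In the NTS angiotensin II is known to blunt the baroreflex, and in the RVLM, whose neurons drive sympathetic outflow, it raises blood pressure.

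Libraries held 5904581 to 17889417 assigned reads with a median of 10143036.5, and levels are given as CPM, counts scaled to a common library size by the TMM method, a unit that is not corrected for gene length and therefore compares a gene with itself only. The catecholamine enzymes Th and Dbh were above 0 in every library of all 3 regions. Library names end in the number 1 or 2, whose meaning is not given in the sources used here: 14 of the 46 libraries of each region end in 2, namely all those at 10 wk, those of 3 of the 5 WKY rats at 8 wk, and that of 1 SHR at 12 wk and of another at 24 wk. The strain contrast at 10 wk was thus made within libraries ending in 2, that at 16 wk within libraries ending in 1, and at 8 wk the number and the strain are partly confounded. For 2 CVLM libraries (WKY 8 wk replicate 5 and SHR 8 wk replicate 5) the title and the age label conflict, and the title was used. The summed choroid plexus markers exceeded 100 CPM in 6 WKY libraries, 5 of the NTS (107 to 4450 CPM) and 1 of the CVLM (200 CPM).

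Ace and Enpep encode the peptidases that make and remove angiotensin II. In the CVLM their transcripts differed between strains in opposite directions, though for Ace not under every alternative run. The 250 bases before their transcription starts are shown for that reason, from RefSeq promoters of build GRCr8 (the reads were counted on another build), with capitals for the TATA box (TATAAA) and the GC box (GGGCGG) on either strand. Ace lies on the plus strand of chromosome 10 at chr10:91409879-91410128 and Enpep on the minus strand of chromosome 2 at chr2:220526219-220526468.
Ace: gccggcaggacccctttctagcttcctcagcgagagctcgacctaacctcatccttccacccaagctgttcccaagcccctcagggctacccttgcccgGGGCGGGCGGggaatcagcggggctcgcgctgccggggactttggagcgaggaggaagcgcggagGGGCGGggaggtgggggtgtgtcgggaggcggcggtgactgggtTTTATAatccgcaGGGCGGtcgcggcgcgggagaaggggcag
Enpep: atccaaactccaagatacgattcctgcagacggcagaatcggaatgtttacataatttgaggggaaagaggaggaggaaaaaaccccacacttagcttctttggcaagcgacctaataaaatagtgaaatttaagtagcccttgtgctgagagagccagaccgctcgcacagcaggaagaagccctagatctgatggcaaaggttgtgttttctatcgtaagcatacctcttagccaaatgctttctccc
The Ace window was 69.2% G and C and held 1 TATA box and 4 GC boxes, of which 2 overlap, and the Enpep window was 45.2% G and C and held neither motif, nor a CCAAT box or an E box (CACGTG). Of 33469 rat promoters of the same length, 12.9% held a TATA box, 30.5% a GC box, 34% a CCAAT box and 5.59% an E box.

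The regions differed in most of these genes, with the widest differences in Agtr1a and Mas1. Of the 9 members 8 could be fitted over all 3 regions, Mas1 only through its levels in the NTS and CVLM, and at an adjusted p under 0.05 8 of 8 differed between NTS and RVLM, 6 of 8 between NTS and CVLM, and 7 of 8 between CVLM and RVLM. The background was wide: 72.7% of 14043 genes differed between NTS and RVLM, 65.9% between NTS and CVLM, and 54% between CVLM and RVLM (edgeR quasi-likelihood test with the rat as a block, Benjamini-Hochberg adjustment over all genes, here and in all region contrasts). The counts of members are to be read against these shares, and the sizes below are means over strains and ages. The counts against the RVLM include Mas1, whose contrasts with that region were favoured by the way it was kept.

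**Figure D1:**
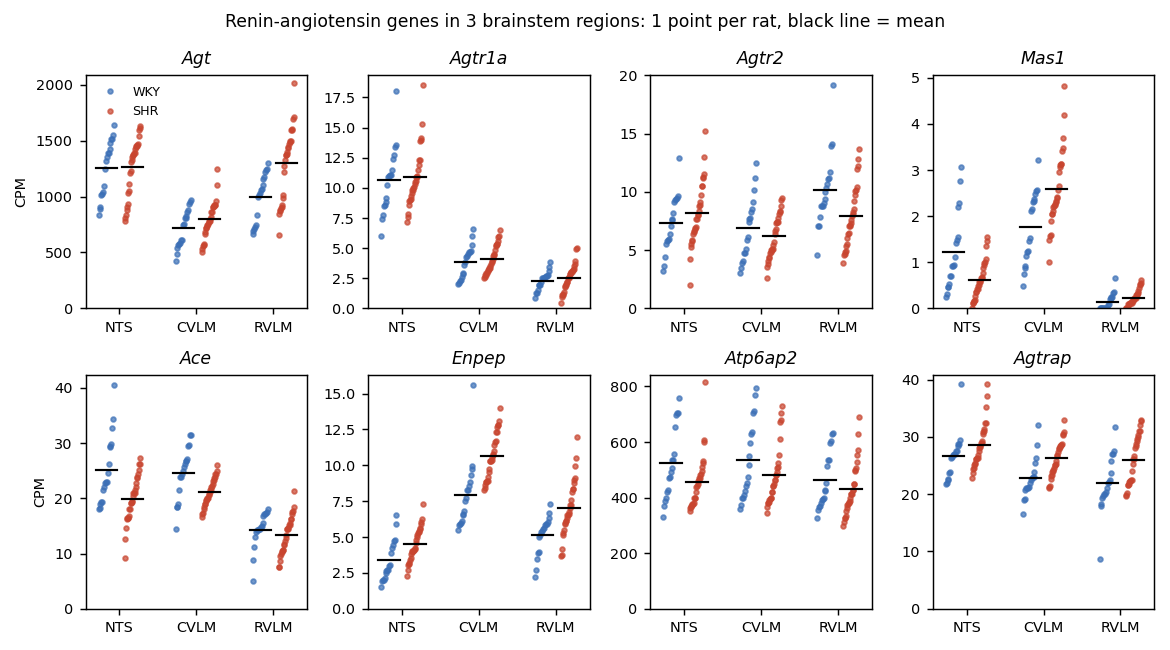
Level in CPM (vertical axes, linear, from 0) of the 8 members measured in bulk punches, by region (horizontal axes) and strain, with 1 point per rat (18 WKY, 28 SHRs) and a black line at the mean; points are spread sideways by rank only. Agtr1a was highest in the NTS and Mas1 and Enpep in the CVLM.

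The type 1 angiotensin receptor had a graded distribution. Agtr1a ranged from 6.04 to 18.5 CPM in the NTS (median 10.6), from 1.99 to 6.62 CPM in the CVLM (median 3.91) and from 0.425 to 5.03 CPM in the RVLM (median 2.53). The NTS level exceeded the RVLM level in 46 of 46 rats and was 4.46-fold higher on average (log2 difference 2.16, SE 0.10, adjusted p = 2.1e-33), and 2.75-fold higher than in the CVLM (adjusted p = 6.28e-24). The CVLM exceeded the RVLM 1.62-fold, in 40 of 46 rats (adjusted p = 1.15e-08). Its near-identical paralog Agtr1b had at most 17 counts in any library and was not tested. Every Agtr1a count was whole in all 3 regions, so none shows reads divided in fractions between genes. Whether shared reads were given wholly to 1 gene of the pair is uncertain. In bulk punches, fewer cells of a type and less RNA per cell cannot be told apart, which holds for every difference given here.

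Mas1, the receptor for the shorter peptide, was highest in the CVLM, at low counts throughout. It ranged from 0.486 to 4.83 CPM in the CVLM (5 to 46 counts), from 0 to 3.06 CPM in the NTS (0 to 44 counts) and from 0 to 0.653 CPM in the RVLM (0 to 8 counts), where 13 of 46 libraries were at 0. The CVLM level was above the RVLM level in 46 of 46 rats and above the NTS level in 39 of 46. The mean was 1.76 CPM in the CVLM and 1.23 CPM in the NTS of WKY rats, and 2.58 and 0.62 CPM in SHRs. At 10 wk the WKY mean was higher in the NTS, at 2.05 CPM against 1.24 CPM in the CVLM, unlike at the other ages. The fitted differences were 2.77-fold between CVLM and NTS (adjusted p = 3.45e-13) and 4.57-fold between NTS and RVLM. The fitted difference between CVLM and RVLM was 12.6-fold (log2 difference 3.66, SE 0.20), a size that depends on few reads in the RVLM. Mas1 was too low to be tested in the RVLM alone and entered this fit through its levels in the other regions. Its differences in level from the RVLM are therefore given without p-values.

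Agtr2, the type 2 receptor, which opposes many type 1 actions, differed less, with medians of 7.65 CPM in the NTS, 6.25 CPM in the CVLM and 8.63 CPM in the RVLM. Its range in the RVLM, 3.89 to 19.2 CPM, overlapped the other 2 regions, and the RVLM level was above the CVLM level in 36 of 46 rats (1.43-fold, adjusted p = 2.81e-07) and above the NTS level in 28 of 46 (1.19-fold, adjusted p = 0.00721). The NTS exceeded the CVLM 1.2-fold (adjusted p = 0.00479).

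Among the precursor and the enzymes, Agt was lowest in the CVLM. Agt ranged from 420 to 1250 CPM in the CVLM (median 773), from 780 to 1640 CPM in the NTS (median 1350) and from 655 to 2010 CPM in the RVLM (median 1190), and in each of the 46 rats the CVLM was below both other regions. The NTS exceeded the CVLM 1.67-fold (adjusted p = 1.53e-31) and the RVLM exceeded it 1.5-fold (adjusted p = 1.53e-25). Over both strains NTS and RVLM differed 1.11-fold (adjusted p = 7e-05), with the NTS higher in 28 of 46 rats. That order was not shared by the strains. The mean was 1260 CPM in the NTS and 999 CPM in the RVLM of WKY rats, and 1260 and 1300 CPM in SHRs. The median summed level of 8 astrocyte markers in WKY rats was also lowest in the CVLM, at 4260 CPM against 5080 in the NTS and 4910 in the RVLM, and its part in the Agt difference was not tested.

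Ace was lower in the RVLM, where it ranged from 5.02 to 21.3 CPM (median 14.4), than in the NTS (9.25 to 40.6 CPM, median 21.3) or the CVLM (14.4 to 31.4 CPM, median 22.2). NTS exceeded RVLM 1.59-fold (adjusted p = 5.34e-17) and CVLM exceeded RVLM 1.64-fold (adjusted p = 4.74e-18), in 44 and 45 of 46 rats. No mean difference was detected between NTS and CVLM (log2 difference -0.05, SE 0.06, adjusted p = 0.486).

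Enpep, aminopeptidase A, which trims angiotensin II to angiotensin III and is known from pericytes in brain, was highest in the CVLM and lowest in the NTS. It ranged from 5.52 to 15.6 CPM in the CVLM (median 9.44), from 2.18 to 12 CPM in the RVLM (median 6.07) and from 1.49 to 7.29 CPM in the NTS (median 4.05). The CVLM exceeded the NTS 2.37-fold in 46 of 46 rats (adjusted p = 1.84e-22) and the RVLM 1.53-fold in 44 of 46 (adjusted p = 1.01e-09), and the RVLM exceeded the NTS 1.55-fold (adjusted p = 1.07e-09). The summed pericyte and smooth muscle markers were also lowest in the NTS of WKY rats, with medians of 61.1 CPM there, 74.8 CPM in the CVLM and 81.6 CPM in the RVLM. Unlike Enpep, the sum was highest in the RVLM. Of the tested markers Pdgfrb ran the other way, with WKY means of 12.9, 12.3 and 12 CPM in NTS, CVLM and RVLM. The other tested markers had their lowest WKY mean in the NTS. The part of these markers in the Enpep difference between regions was not tested.

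The 2 accessory proteins were nearly even. Atp6ap2, the prorenin receptor and a subunit of the vacuolar proton pump, had medians of 466, 464 and 413 CPM in NTS, CVLM and RVLM, with differences of at most 0.17 on the log2 scale (CVLM against RVLM, adjusted p = 1.52e-05). Agtrap, which binds the type 1 receptor and promotes its internalization, had medians of 27.3, 24.4 and 23.1 CPM and NTS exceeded RVLM 1.15-fold (adjusted p = 5.48e-06). Between CVLM and RVLM no mean difference was detected (log2 difference 0.03, adjusted p = 0.589).

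Lnpep, the angiotensin IV receptor and an aminopeptidase, could not be followed. It was at 0 in 34 of 46 NTS, 34 of 46 CVLM and 38 of 46 RVLM libraries, its highest level was 2.24 CPM, and in all 12, 12 and 8 libraries above 0 the count was not whole, as a count is where the authors' counting divided reads between genes. It was tested in no region.

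Averaged over the 5 ages, 5 members (Agt, Ace, Enpep, Mas1 and Agtrap) were called between the strains in at least 1 region. In the NTS 2 of 8 members tested were called at an adjusted p under 0.05 (background 11.2% of 13793 genes), in the CVLM 4 of 8 (background 12.3% of 13408 genes) and in the RVLM 2 of 7 (background 10.8% of 13411 genes). The median log2 fold change over the members tested in NTS, CVLM and RVLM was -0.01, 0.13 and 0.11, beside medians within 0.01 of 0 over all genes in each region. These strain and age contrasts come from edgeR's quasi-likelihood test with 1 fit per region and Benjamini-Hochberg adjustment over all genes of that region.

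**Figure D2:**
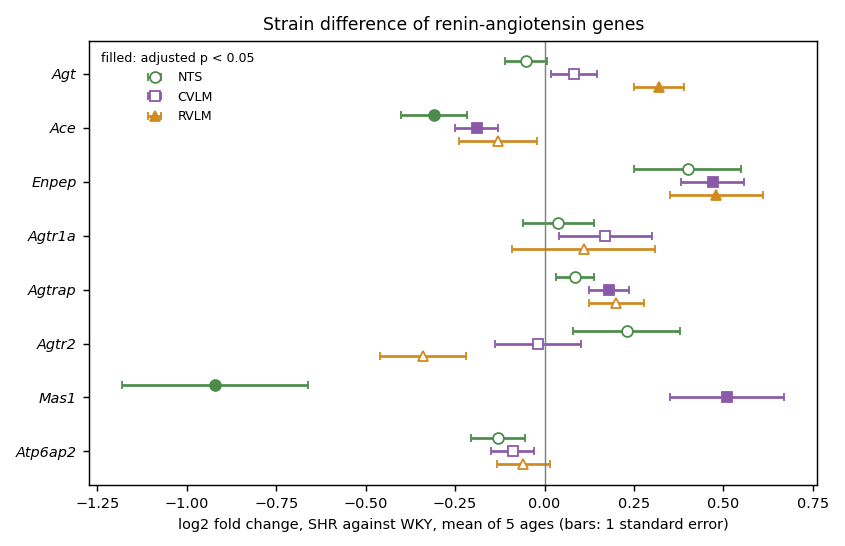
Log2 fold change of SHRs against WKY rats averaged over 5 ages (horizontal axis) for each member tested, with circles for NTS, squares for CVLM, triangles for RVLM, bars of 1 standard error and filled symbols where the adjusted p is under 0.05. Enpep lies to the right of 0 in all 3 regions (0.40, 0.47 and 0.48), and Mas1 lies on opposite sides of 0 in NTS and CVLM.

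Angiotensinogen was higher in SHRs in the RVLM. Agt ranged there from 655 to 2010 CPM in SHRs (median 1380, n = 28) and from 665 to 1300 CPM in WKY rats (median 1050, n = 18), and 17 SHRs lay above every WKY rat. The fold change over ages was 1.25 (log2 0.32, SE 0.07, adjusted p = 0.00102), and the point estimate was above 0 at each of the 5 ages, from 0.08 at 24 wk to 0.80 at 8 wk. It was called under every alternative run, including each rat left out in turn. In the NTS the log2 fold change was -0.05 (SE 0.06, adjusted p = 0.725) and in the CVLM 0.08 (SE 0.06, adjusted p = 0.516). The strain effect on Agt differed between NTS and RVLM when that difference was itself tested (log2 -0.37, SE 0.07, adjusted p = 0.00045, background 1.82% of genes).

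At 8 wk Agt stood out most. The SHR values in the RVLM were 1370, 1500, 1590, 1690 and 2010 CPM, and the WKY values were 692, 836, 1010, 1030 and 1070 CPM. All 5 SHRs thus lay above all 5 WKY rats (log2 0.80, SE 0.15, adjusted p = 0.000199). In the CVLM the SHR values were 783, 908, 919, 927 and 963 CPM and the WKY values 484, 537, 584, 611 and 823 CPM, so that the groups overlapped by 1 WKY rat (log2 0.56, SE 0.13, adjusted p = 0.00494). In the NTS the log2 fold change at 8 wk was 0.27 (SE 0.12, adjusted p = 0.165).

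Agt also moved with the number in the library names, which at 8 wk separates 3 WKY rats from all SHRs. In the RVLM it ranged from 655 to 1010 CPM in the 14 libraries ending in 2 and from 869 to 2010 CPM in the 32 ending in 1, and in the CVLM from 420 to 684 CPM and from 584 to 1250 CPM. Among libraries ending in 1, the 2 remaining WKY rats at 8 wk had 1030 and 1070 CPM in the RVLM, below all 5 SHRs, and 584 and 823 CPM in the CVLM. Restricted to those libraries, the fold change at 8 wk had the same sign but was not called in either region (RVLM log2 0.62, adjusted p = 0.0929; CVLM 0.38, adjusted p = 0.669). With the number as a term in the fit the RVLM value was still called (0.55, adjusted p = 0.0302) and the CVLM call was lost (log2 0.37, adjusted p = 0.231). At 10 wk, where every library ends in 2, the RVLM log2 fold change was 0.24 (adjusted p = 0.917), and at 16 wk, where every library ends in 1, it was 0.30 (adjusted p = 1).

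Astrocyte markers were read beside Agt because astrocytes are its known source. Their summed level was lower in SHRs in each region (medians 3840 against 5080 CPM in NTS, 2810 against 4260 in CVLM, 3310 against 4910 in RVLM). These sums weigh S100b most, the marker with the highest mean level in each region and strain. Its mean in SHRs and WKY rats was 1500 and 2910 CPM in NTS, 1140 and 2430 in CVLM, and 1370 and 3140 in RVLM. Of the 8 genes, S100b fell in all 3 regions by 0.95, 1.11 and 1.18 on the log2 scale, Aldh1l1 rose in the RVLM (log2 0.36, adjusted p = 0.00151), and the other 6 were not called in any region. These 2 genes were named after their values were seen, and the part of the marker levels in the Agt difference was not tested.

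Angiotensin-converting enzyme was called lower in SHRs over ages in the NTS and CVLM, but neither call held under every alternative run. Ace in the NTS ranged from 9.25 to 27.4 CPM in SHRs (median 19.9) and from 18.1 to 40.6 CPM in WKY rats (median 22.9), and 10 SHRs lay below every WKY rat (fold 0.804, log2 -0.31, SE 0.09, adjusted p = 0.0167). In the CVLM the ranges were 16.6 to 26 CPM (median 20.9) and 14.4 to 31.4 CPM (median 25.4), with no SHR outside the WKY range (fold 0.876, log2 -0.19, SE 0.06, adjusted p = 0.0225). The CVLM call was lost at log2 -0.17 without SHR 8 wk replicate 3 (adjusted p = 0.0504), WKY 16 wk replicate 3 (0.0564) or WKY 24 wk replicate 1 (0.0751), and likewise with no filter on low counts (0.0833), and among libraries ending in 1 neither region was called (NTS -0.30, adjusted p = 0.0701; CVLM -0.15, adjusted p = 0.32). In the RVLM the log2 fold change was -0.13 (SE 0.11, adjusted p = 0.561).

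The NTS difference in Ace was widest at 8 wk. The SHR values were 9.25, 14.7, 16.4, 16.5 and 18.1 CPM and the WKY values 18.3, 23, 29.5, 32.7 and 40.6 CPM, with no overlap (fold 0.507, log2 -0.98, SE 0.19, adjusted p = 0.000688). The WKY values of 23, 32.7 and 40.6 CPM are those of libraries ending in 2. Among libraries ending in 1 the call was lost (log2 -0.70, adjusted p = 0.157), as it was with 8 wk fitted alone (-0.95, adjusted p = 0.0672), and with the number as a term it was kept (-0.76, adjusted p = 0.0421). At 16 wk the log2 fold change was 0.00 (SE 0.21) and at 24 wk -0.09 (SE 0.21), neither called. Choroid plexus is known to express Ace, and its markers were read beside these values. The highest Ace value, 40.6 CPM, belonged to replicate 5, whose summed choroid plexus markers were 1840 CPM, and the value of 29.5 CPM to replicate 2, with 235 CPM. The other NTS libraries above 100 CPM of these markers were WKY 10 wk replicate 4 and WKY 12 wk replicates 2 and 3. Their Ace values were 34.3, 29.3 and 29.8 CPM. The marker sum of the SHR libraries of the NTS reached at most 9.69 CPM. Without the libraries above 100 CPM of these markers, the NTS difference over ages shrank to log2 -0.16 (adjusted p = 0.424), and that at 8 wk was log2 -0.78 (adjusted p = 0.0219).

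Aminopeptidase A was higher in SHRs at every age and in every region by point estimate, and was called in the CVLM and RVLM. Enpep in the CVLM ranged from 8.27 to 14 CPM in SHRs (median 10.5) and from 5.52 to 15.6 CPM in WKY rats (median 7.62). The lower end of the SHRs thus lay above the WKY median, and 1 WKY rat lay above all SHRs. The fold change over ages was 1.38 (log2 0.47, SE 0.09, adjusted p = 8.46e-05). In the RVLM the ranges were 3.66 to 12 CPM (median 6.68) and 2.18 to 7.3 CPM (median 5.48), with 10 SHRs above every WKY rat (fold 1.39, log2 0.48, SE 0.13, adjusted p = 0.011). In the NTS the log2 fold change was 0.40 (SE 0.15, adjusted p = 0.0878), and it passed the threshold without WKY 10 wk replicate 1 (0.47, adjusted p = 0.0324), WKY 16 wk replicate 1 (0.50, adjusted p = 0.0304) or WKY 24 wk replicate 1 (0.55, adjusted p = 0.0107). The CVLM value was called under every alternative run, and the RVLM value under all but the restriction to libraries ending in 1 (0.44, adjusted p = 0.0837). A difference between regions in the effect on Enpep was not detected (NTS minus RVLM -0.05, SE 0.18, adjusted p = 0.95).

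The CVLM point estimates for Enpep were widest at 16 and 24 wk. At 24 wk in the CVLM the WKY values were 5.85, 5.99 and 7.7 CPM, and the 6 SHRs ranged from 8.9 to 14 CPM with a median of 10.2, all above the WKY rats (log2 0.67, SE 0.21, adjusted p = 0.0396). At 16 wk the WKY values were 5.9, 6.58 and 6.79 CPM and the 6 SHRs ranged from 8.44 to 13.1 CPM, again without overlap, but that contrast was not called (log2 0.61, SE 0.21, adjusted p = 0.159). In the RVLM at 24 wk the log2 fold change was 0.92 (SE 0.32, adjusted p = 0.145). A dependence of the strain effect on age was not called for Enpep in any region. The 24 wk call in the CVLM was lost with any 1 of 5 rats left out: WKY replicate 2 (adjusted p = 0.133), WKY replicate 3 (0.195), SHR replicate 1 (0.0918), SHR replicate 3 (0.0708) and SHR replicate 6 (0.0523). It was also lost with 24 wk fitted alone (log2 0.72, adjusted p = 0.0892) and with a replicate block (0.65, adjusted p = 0.0687).

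Markers of pericytes and smooth muscle, the cells Enpep is known from, were also higher in SHRs. Their summed level had medians of 75.7 CPM in SHRs and 61.1 CPM in WKY rats in the NTS, 92.2 and 74.8 CPM in the CVLM, and 97.6 and 81.6 CPM in the RVLM. Of the 7 tested of 8 genes, NTS, CVLM and RVLM had 2, 1 and 3 that rose, and none fell. Tagln rose in each region (log2 1.12, 0.61 and 0.44) and Acta2 had a median count of 0 in the SHRs of the NTS and CVLM. Pdgfrb, which defines pericytes, had log2 fold changes of 0.23, 0.18 and 0.34, none called. These genes were named after their values were seen, and their part in the Enpep difference was not tested.

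Mas1 differed between the strains in opposite directions in 2 regions. In the NTS it ranged from 0 to 1.54 CPM in SHRs (median 0.578) and from 0.252 to 3.06 CPM in WKY rats (median 0.938), and was lower in SHRs (fold 0.53, log2 -0.92, SE 0.26, adjusted p = 0.0157). In the CVLM it ranged from 1 to 4.83 CPM in SHRs (median 2.36) and from 0.486 to 3.22 CPM in WKY rats (median 1.82), and was higher in SHRs (fold 1.43, log2 0.51, SE 0.16, adjusted p = 0.0229). The difference between the 2 strain effects was called (NTS minus CVLM -1.48, SE 0.32, adjusted p = 0.00899, background 0.449% of genes), as was that between NTS and RVLM (-1.74, SE 0.48, adjusted p = 0.0332), where the RVLM side rests on at most 8 counts a library. The latter was lost without SHR 10 wk replicate 3 (-1.67, adjusted p = 0.0562). Among libraries ending in 1 the signs over ages were kept but neither region was called (NTS log2 -0.57, adjusted p = 0.442; CVLM 0.30, adjusted p = 0.485). The CVLM call over ages was also lost without WKY 16 wk replicate 2 (log2 0.44, adjusted p = 0.0563).

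By age, the widest Mas1 differences lay at 10 and 12 wk in the NTS and at 8 wk in the CVLM. In the NTS the WKY values at 10 wk were 0.926, 2.21, 2.29 and 2.76 CPM and all 5 SHRs lay below them, from 0.575 to 0.878 CPM. At 12 wk the WKY values were 1.48, 1.56 and 3.06 CPM, and 5 of 6 SHRs lay below them, between 0.19 and 0.507 CPM, with the other at 1.54 CPM. Neither age was called (10 wk log2 -1.46, adjusted p = 0.0874; 12 wk -1.85, adjusted p = 0.0574), and at 24 wk the log2 fold change was -0.02 (SE 0.65). In the CVLM the called age was 8 wk, with SHR values of 1.9, 2.23, 2.24, 3.14 and 4.83 CPM against WKY values of 0.486, 0.869, 1.14, 1.24 and 2.16 CPM, so that 4 SHRs lay above every WKY rat (log2 1.28, SE 0.34, adjusted p = 0.0129). That call was lost without WKY replicate 5 (log2 1.09, adjusted p = 0.0627) or SHR replicate 1 (1.04, adjusted p = 0.0743), with both CVLM libraries of conflicting labels left out (1.17, adjusted p = 0.052), with the library-name number as a term (1.00, adjusted p = 0.195), with 8 wk fitted alone (1.3, adjusted p = 0.128), and among libraries ending in 1 (0.77, adjusted p = 0.955).

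**Figure D3:**
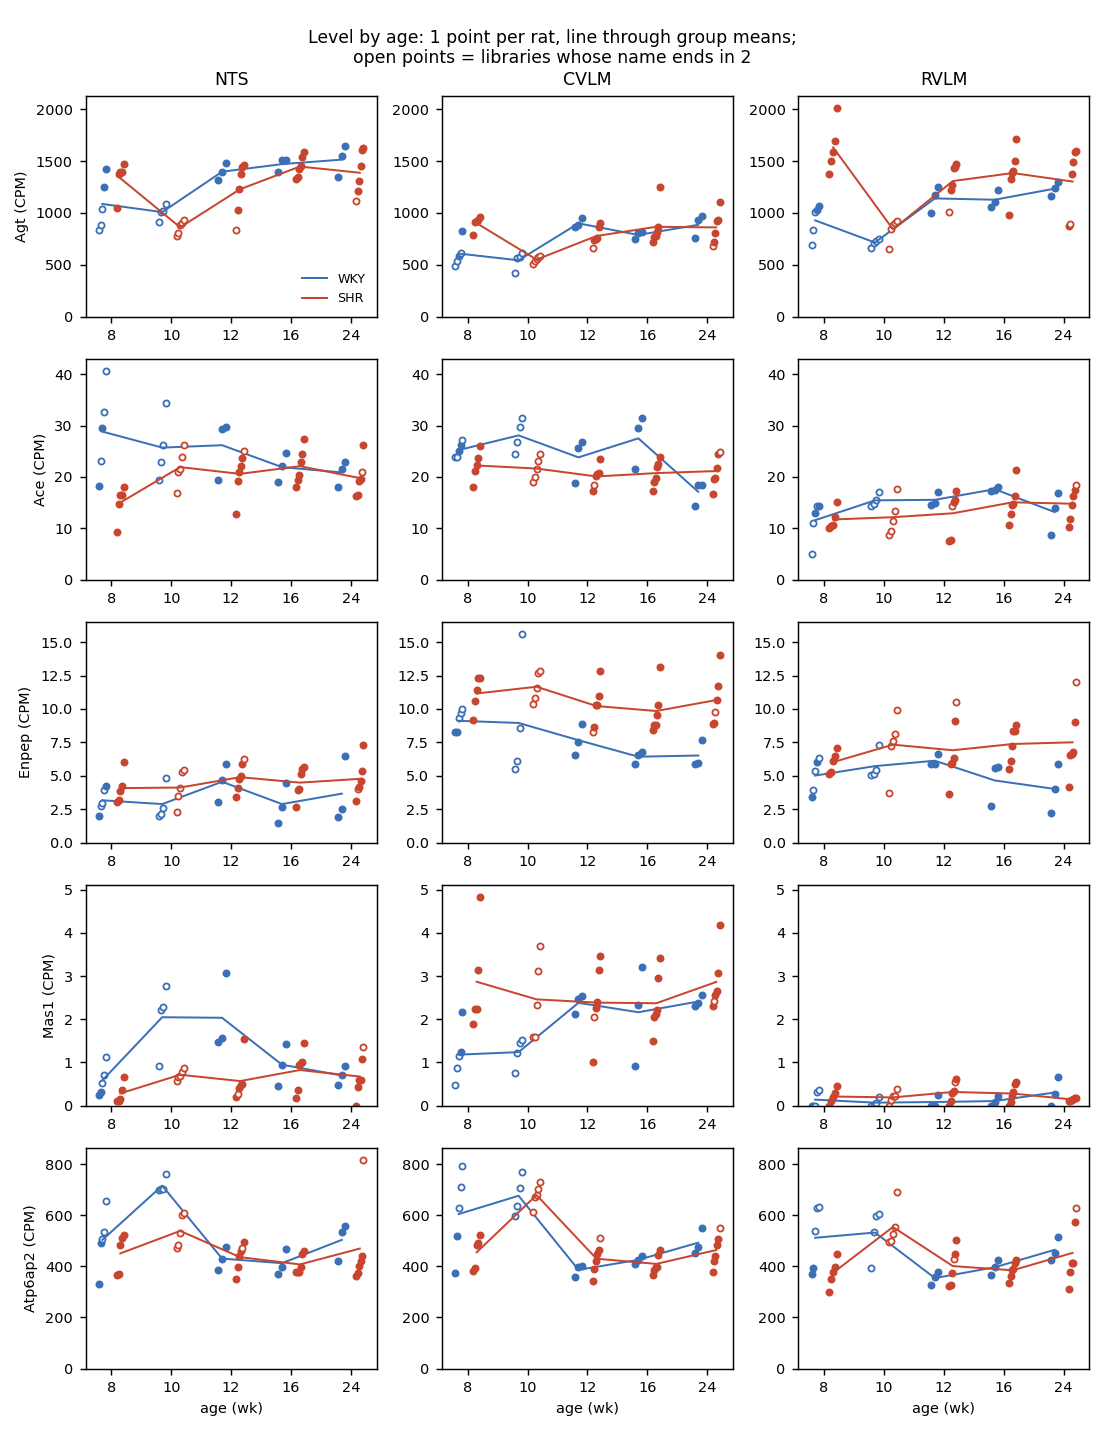
Level in CPM (vertical axes, linear, from 0, the same within a row) of Agt, Ace, Enpep, Mas1 and Atp6ap2 by age in weeks (horizontal axes, ages evenly spaced) in NTS, CVLM and RVLM, with 1 point per rat (WKY blue, SHR red), lines through group means and open points for libraries whose name ends in 2. The open points lie low for Agt and high for Atp6ap2 in each region, and the SHRs at 24 wk in the CVLM lie above the WKY rats for Enpep.

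The receptors for angiotensin II were not called between strains in any region or at any age. The log2 fold change of Agtr1a over ages had 95% confidence intervals of -0.15 to 0.23 around 0.04 for NTS, -0.09 to 0.43 around 0.17 for CVLM, and -0.27 to 0.50 around 0.11 for RVLM. By level, Agtr1a in the NTS lay between 7.2 and 18.5 CPM in SHRs and between 6.04 and 18 CPM in WKY rats, which overlap almost wholly. Agtr2 had its largest difference in the RVLM, where SHRs ranged from 3.89 to 13.7 CPM (median 7.44) and WKY rats from 4.56 to 19.2 CPM (median 9.73), and missed the threshold (log2 -0.34, SE 0.12, adjusted p = 0.0567). DESeq2 called it (adjusted p = 0.0408), as did the fit with a replicate block (log2 -0.44, adjusted p = 0.0131). In the NTS its point estimate was above 0 (0.23, SE 0.15, adjusted p = 0.402), and the difference between NTS and RVLM was not called (0.56, SE 0.17, adjusted p = 0.0684), but DESeq2 called it (0.56, adjusted p = 0.0408), as did edgeR without WKY 16 wk replicate 3 (0.66, adjusted p = 0.0187).

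Of the accessory proteins, Agtrap was higher in SHRs in the CVLM, with 21 to 33 CPM in SHRs (median 26.3) against 16.6 to 32 CPM in WKY rats (median 22.2). The groups overlapped over most of their range, with 1 SHR above every WKY rat (fold 1.13, log2 0.18, SE 0.06, adjusted p = 0.0251). In the RVLM the log2 fold change was 0.20 (SE 0.08, adjusted p = 0.0964) and in the NTS 0.08 (SE 0.05, adjusted p = 0.409). The CVLM call was lost without WKY 12 wk replicate 1 (adjusted p = 0.0682), WKY 16 wk replicate 1 (0.0519) or WKY 16 wk replicate 2 (0.0546), and among libraries ending in 1 (log2 0.15, adjusted p = 0.19). The RVLM value passed the threshold without WKY 16 wk replicate 3 (0.24, adjusted p = 0.0359). At 8 wk in the RVLM the SHR values were 21.6, 21.8, 24, 28.7 and 32.8 CPM and the WKY values 8.65, 18, 20, 20.1 and 21.1 CPM, all 5 SHRs above all WKY rats (log2 0.54, SE 0.16, adjusted p = 0.0268). Without the low WKY replicate 3 the log2 fold change was 0.36 (adjusted p = 0.0994), without SHR replicate 2 it was 0.49 (adjusted p = 0.0708), and without SHR replicate 3 it was 0.45 (adjusted p = 0.0881). The call was also lost with the library-name number as a term (0.37, adjusted p = 0.315), among libraries ending in 1 (0.39, adjusted p = 0.539) and with 8 wk fitted alone (0.54, adjusted p = 0.231).

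Atp6ap2 was called at 1 age in 1 region. At 8 wk in the CVLM the SHR values were 381, 395, 482, 493 and 524 CPM and the WKY values 373, 518, 628, 711 and 793 CPM (log2 -0.41, SE 0.12, adjusted p = 0.0346). The 3 highest WKY values were those of the libraries ending in 2. Over all ages Atp6ap2 ranged in the CVLM from 511 to 793 CPM in libraries ending in 2 and from 343 to 551 CPM in those ending in 1, with a like split in the NTS (470 to 816 and 331 to 556 CPM) and the RVLM (394 to 691 and 298 to 572 CPM). Among libraries ending in 1 the fold change turned to log2 0.06 (adjusted p = 1), and with the number as a term it was -0.09 (adjusted p = 0.955). It was not called with no filter on low counts (-0.40, adjusted p = 0.0624), with 8 wk fitted alone (-0.39, adjusted p = 0.31) or without the CVLM libraries of conflicting labels (-0.35, adjusted p = 0.153). The call was also lost without WKY 8 wk replicate 3 (-0.27, adjusted p = 0.255), replicate 4 (-0.33, adjusted p = 0.159) or replicate 5 (-0.39, adjusted p = 0.0882), without SHR 8 wk replicate 2 (-0.35, adjusted p = 0.118), replicate 3 (-0.42, adjusted p = 0.0572) or replicate 5 (-0.36, adjusted p = 0.0737), and without SHR 10 wk replicate 2 (-0.37, adjusted p = 0.0652) or WKY 24 wk replicate 1 (-0.38, adjusted p = 0.0559).

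Seen age by age, all called values but 1 lay at 8 wk, where the library-name number and the strain are partly confounded. The other lay at 24 wk, and its call was lost with single rats left out, as given above. The share of all genes called was highest at 8 wk too in each region. In the NTS 1 of 8 members was called at 8 wk (Ace, background 5.79%) and none at 10 wk (4.44%), 12 wk (3.1%), 16 wk (1.74%) or 24 wk (2.46%). In the CVLM 3 of 8 were called at 8 wk (Agt and Mas1 higher and Atp6ap2 lower in SHRs, background 7.64%), none at 10 wk (3.18%), 12 wk (2.62%) or 16 wk (2.27%), and 1 at 24 wk (Enpep, 7.13%). In the RVLM 2 of 7 were called at 8 wk (Agt and Agtrap, background 9.78%) and none at 10 wk (2.3%), 12 wk (1.7%), 16 wk (1.65%) or 24 wk (2.24%). An effect called at 1 age and not at another is not shown to differ: the strain effect was called as differing between ages for 0 of 23 member values, with 5 at an unadjusted p under 0.05 in edgeR and 0 called by DESeq2, beside 0.0145%, 0.0224% and 0.00746% of all genes in NTS, CVLM and RVLM.

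Within strains, 24 wk was compared with 8 wk. In WKY rats 2 of 23 member values were called, both in the CVLM (background 13.7%), and none in the NTS (0.464%) or RVLM (0.179%). Agt in the CVLM was 755, 929 and 971 CPM at 24 wk against 484, 537, 584, 611 and 823 CPM at 8 wk and rose 1.5-fold (log2 0.59, SE 0.15, adjusted p = 0.0095), while Ace fell from 23.8 to 27.2 CPM at 8 wk to 14.4, 18.4 and 18.5 CPM (log2 -0.51, SE 0.14, adjusted p = 0.0162). Since 3 of the 5 WKY libraries at 8 wk end in 2 and none at 24 wk do, the same contrast among libraries ending in 1 was read beside it: Agt 0.37 (adjusted p = 0.415) and Ace -0.54 (adjusted p = 0.236), neither called. Nor was either called with the number as a term (Agt 0.40, adjusted p = 0.164; Ace -0.49, adjusted p = 0.0942) or with these ages fitted alone (Agt 0.60, adjusted p = 0.0802; Ace -0.51, adjusted p = 0.0833). The Agt call was lost without WKY 24 wk replicate 1 (0.49, adjusted p = 0.0738) or replicate 3 (0.55, adjusted p = 0.0646), and the Ace call without replicate 3 (-0.40, adjusted p = 0.138). In SHRs 0 of 23 member values were called by edgeR or DESeq2, with 3 at an unadjusted p under 0.05 in edgeR (background 0.232% in NTS, 0.649% in CVLM and 0.358% in RVLM).

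The strain effects were set side by side across regions in the fit over all libraries. Of 24 member values 3 were called, all in contrasts with the NTS: Agt and Mas1 between NTS and RVLM, and Mas1 between NTS and CVLM, as given above. In the RVLM Mas1 had at most 8 counts a library and had not passed the filter of that region. Between CVLM and RVLM none of 8 was called (background 0.32%), including Agt (-0.22, SE 0.07, adjusted p = 0.299).

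The other genes of the system were followed through a list of 20 genes for converting enzymes, peptidases and receptor partners, of which 14 were tested in each region. Their median log2 fold changes over ages in NTS, CVLM and RVLM were 0.02, -0.02 and -0.01, and no gene of the list was called lower in SHRs. Anpep, aminopeptidase N, which trims angiotensin III further, was higher in the NTS (1.48-fold, adjusted p = 0.0228) and RVLM (1.5-fold, adjusted p = 0.00293) and uncalled in the CVLM (1.2-fold, adjusted p = 0.285).

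Between regions, 10 of these 14 genes differed between NTS and RVLM, 8 between NTS and CVLM and 8 between CVLM and RVLM, beside 72.7%, 65.9% and 54% of all genes. Among the largest differences were those of Mme, neprilysin, which was 3.32-fold higher in the CVLM than in the RVLM (adjusted p = 1.48e-30), of Dpp3, a peptidase of angiotensins, which was lower in the NTS than in the RVLM (log2 -0.90, adjusted p = 8.6e-37), and of Ctsd, cathepsin D, with -0.61 in the same contrast (adjusted p = 1.59e-38).

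Signalling partners of the type 1 receptor were followed through 13 genes for G proteins, phospholipases, arrestins and kinases, all tested. None was called between strains over ages in any region, with medians of 0.02, 0.045 and -0.01 in NTS, CVLM and RVLM. Between regions 10, 9 and 6 of 13 differed (NTS against RVLM, NTS against CVLM, CVLM against RVLM), beside the same 72.7%, 65.9% and 54% of all genes. Plcb1, a phospholipase of this pathway, was lower in the CVLM than in the RVLM (log2 -0.93, adjusted p = 1.69e-27), and Gna13 likewise (-0.52, adjusted p = 2.71e-14). The receptor kinase gene Grk5 was lower in the NTS than in the RVLM (-0.56, adjusted p = 2.02e-07), and Jak2 was higher in the NTS (0.48, adjusted p = 1.22e-06).

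The genes whose levels ran most like each member's were read over all libraries, which share regions, rats and library-name numbers, as a description. Over 13115 genes, Atp6ap2 was most like Scoc (r = 0.96), Eif4a2 (0.95) and Eif4e (0.91), Agtr1a like Fam107a (0.89), Wdr78 (0.89) and Rarb (0.88), and Agt like Pdlim4 (0.85), Dap (0.83) and Fads2 (0.83). Ace ran with Syt13 (0.79), AABR07024542.1 (0.78) and Vamp2 (0.78), Enpep with AC126641.1, Lamp5 and Lrat (0.77 each), Agtrap with Aar2, Sec61a1 and Acsf2 (0.72 each), and Agtr2 with Pnpt1 (0.70), Gria4 (0.69) and Rpe (0.69). Among the members themselves, Agt and Atp6ap2 had the most negative correlation, -0.58 over libraries and -0.45 after removal of the means of the 30 groups, and Agtr2 and Atp6ap2 the most positive after that step, 0.49.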

How the data were processed

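Total RNA from punches of frozen brainstem sections was sequenced. Per the labels and the study's methods, the authors aligned reads with STAR 2.6.1 to rat genome build rn6 and counted genes with RSEM 1.3.1. The deposited values are RSEM expected counts, not adjusted for batch (4.88 to 5.02% of values per region were not whole), and they were rounded here to whole numbers. The study itself adjusted counts for batch with ComBat_seq before DESeq2.

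Genes whose largest rlog value in a region reached 3.5 were tested in that region, with edgeR 4.0.16 in R 4.3.3 (TMM, robust quasi-likelihood fit, 10 groups of strain and age). Regions were compared in 1 fit over all libraries with the rat as a block, since the labels give the same rat in all 3 regions. Deviations from group means of pairs of libraries of 1 rat, 3 pairs per rat, had a median r of 0.21, and 88 pairs were over 0.1. A gene was called at a Benjamini-Hochberg adjusted p under 0.05 over all genes of the fit. On simulated counts the contrast over ages recovered 93 to 97% of genes changed by a log2 of 1 and 73 to 77% of those changed by 0.5, and the contrast at 8 wk 62 to 67% and 16 to 25%.

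Alternatives were DESeq2 1.42.0 or its size factors, other filters, blocks and terms, subsets of libraries, limma 3.58.1 with voom, and each rat left out in turn (in the fit over all regions, 8 rats drawn at random). The members and gene lists were chosen with earlier results of these data known. Of the 2 further lists, genes called over ages in any region and the 4 with the largest difference between regions were named, apart from some items that are not reported here, and for each member tested in all regions the 3 genes of highest Pearson r.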

Additional observations from a re-analysis of the deposited data

Results flagged for a closer look

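Single rats stood apart from their group in 9 of 161 groups of 4 to 6 rats, beyond Dixon's 95% critical value for the gap to the nearest rat. By chance about 1 in 20 groups is flagged. The WKY groups at 12, 16 and 24 wk, of 3 rats each, were not among those tested. For Agt they were SHR 8 wk replicate 4 in the NTS, at 1050 CPM against 1370 to 1470 CPM in the other rats, and SHR 16 wk replicate 4 in the CVLM, at 1250 CPM against 723 to 862 CPM. For Agtr2 they were SHR 12 wk replicate 4 in the CVLM, at 7.4 CPM against 4.4 to 5.4 CPM, and SHR 10 wk replicate 2 in the RVLM, at 7.09 CPM against 12 to 13.7 CPM. Mas1 in SHR 12 wk replicate 1 of the NTS was 1.54 CPM against 0.19 to 0.507 CPM. Atp6ap2 in the NTS was 760 CPM in WKY 10 wk replicate 1 against 697 to 703 CPM, and 816 CPM in SHR 24 wk replicate 6 against 362 to 442 CPM, the latter being the only library of its group whose name ends in 2. Enpep in the RVLM was 7.3 CPM in WKY 10 wk replicate 2 against 5.03 to 5.42 CPM. Agtrap in the RVLM was 8.65 CPM in WKY 8 wk replicate 3 against 18 to 21.1 CPM.

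The strain effect differed between regions by its own test for Agt between NTS and RVLM (log2 difference -0.37), for Mas1 between NTS and RVLM (-1.74), and for Mas1 between NTS and CVLM (-1.48). In the RVLM Mas1 had not passed the filter, with at most 8 counts a library.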

How the results depend on the processing

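The counts of members called between regions (8, 6 and 7) and the count of 0 for a strain effect differing between ages and for 24 against 8 wk in SHRs were the same under each alternative run for them. Over the values of single members, 520 of those recomputed under alternatives kept their side of the threshold and, where called, their direction. Of the rest, 32 lost a call, 5 gained one and 1 reversed. With 1 rat left out 1810 did so, 29 lost a call and 17 gained one. Uncalled values could change sign within these counts, as Agt over ages did in the NTS (log2 -0.052, at most 0.005 under an alternative). Values at single ages and for 24 against 8 wk were included only where called in the fits above. They could thus lose a call but not gain one. The reversed value was that of Atp6ap2 at 8 wk in the CVLM, log2 0.055 among libraries whose name ends in 1. That restriction, chosen after seeing the data, leaves fewer samples and no 10 wk rats, and the cause of its effects was not tested beyond that. In NTS, CVLM and RVLM it left 0 of 1, 1 of 4 and 0 of 2 calls at single ages, 0 of 2, 1 of 4 and 1 of 2 over ages, and 0 of 2 for 24 against 8 wk in WKY rats. With the name's number as a term these counts at single ages were 2, 2 and 1, and 0 for WKY rats. With the compared ages fitted alone, on fewer samples, they were 2, 1 and 1, and 0 for WKY rats. DESeq2 called 2 values at single ages in the NTS and 4 for WKY rats. Without the 2 CVLM libraries of conflicting labels 2 of 4 single-age values were called, and without libraries high in choroid plexus markers 1 of 2 members over ages in the NTS. The cause of these changes was not tested. The share of all genes called under each setting is not given here, for these counts or for those with a rat left out. A change in them is thus not shown to be particular to the members.

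With each rat left out in turn, the calls at single ages in NTS, CVLM and RVLM ranged from 1 to 2, 2 to 6 and 1 to 4. Over ages they ranged from 2 to 3, 2 to 4 and 2 to 4, from 0 to 6 for 24 against 8 wk in WKY rats, and from 2 to 4 for strain effects differing between regions (8 rats drawn).

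Replicate numbers shared by the strains do not name the same animal. With the number as a replicate block, the members called over ages in the NTS rose from 2 to 4, with Enpep (log2 0.50, adjusted p = 0.00455) and Atp6ap2 (-0.20, adjusted p = 0.0382) added. The call of Enpep at 24 wk in the CVLM was lost (0.65, adjusted p = 0.0687) and Agtr2 in the RVLM was called over ages (-0.44, adjusted p = 0.0131). The block changed no other call among the values of single members counted above. Of 54 pairs of the same number 33 had correlated deviations over 0.1 (median r 0.17, lowest -0.37), and 20 correlated best with their own number.

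Mas1 in the RVLM had at most 8 counts a library, and in simulated counts most changes of 0.5 on the log2 scale at a single age were missed.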
